A study of Rattus norvegicus with 4 samples.

Results

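The 10 genes described here encode neuregulins and ligands of the epidermal growth factor (EGF) family: Nrg1, Nrg2, Nrg3, Hbegf, Btc, Tgfa, Areg, Ereg, Egf and Epgn. They were chosen by name, and a peak belonged to one of them where the deposited annotation gave that gene as the nearest. By this rule 236 of the 129550 peaks named 9 of the 10 genes, and no peak named Nrg3. The mark was trimethylation of histone H3 at lysine 27 (H3K27me3), profiled by chromatin immunoprecipitation and sequencing in rat sciatic nerve. The animals were male Sprague Dawley rats of postnatal day 42. All nerves came from the sham-operated limb, which received a skin incision, and were taken 1 day after the sciatic nerve of the opposite limb had been cut. There were 2 H3K27me3 libraries and 2 input libraries, and the deposited peaks are 1 combined H3K27me3 list on the assembly rn5. Values of the cut nerve were not analysed here.

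These ligands bind the ErbB receptor tyrosine kinases. Nrg1 and Nrg2 bind ErbB3 and ErbB4, and Nrg3 binds ErbB4, with ErbB2 as the partner that binds no ligand of its own. Tgfa, Areg, Egf and Epgn bind the EGF receptor, whereas Hbegf, Btc and Ereg bind both that receptor and ErbB4. In peripheral nerve, Nrg1 on axons drives Schwann cell survival, migration and myelination through ErbB2 and ErbB3, and Schwann cells themselves make Nrg1 after injury. H3K27me3 is placed by the Polycomb complex PRC2 and is known as a mark of silent or poised genes.

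The combined list gives a single score per peak and nothing per library, so no spread between replicates exists and no test between genes was run. The score is the authors' own value, without a stated scale. Scores under 10 are whole multiples of 0.2063 within a tolerance of 0.005, and the 95% Poisson intervals given in parentheses rest on the assumption that 1 step is 1 tag. Counting error is all they describe, and library depth is unknown. The nerve is a mixture of cell types, so a mark in few cells and a weak mark in many cells cannot be told apart. As a check of the tissue, 6 of 6 neuron markers (Rbfox3, Snap25, Syt1, Elavl4, Slc17a7 and Gad1) had a promoter peak. Their scores ran from 26.0 to 754. Among hepatocyte markers 1 of 4 had one, Alb (7.43), and over all protein-coding genes the share was 17.2%. The Schwann cell markers were mixed: Ncam1 (105) and Sox10 (4.13) had a promoter peak, while S100b, Cdh19 and L1cam had none. Axons enter the nerve without their nuclei, and a peak list does not measure expression.

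Promoter sequences of 300 bases (250 before and 50 after the start of the gene) were taken from RefSeq, build GRCr8, and matched by symbol for 8 of the 10 genes, all but Nrg1 and Ereg. They are from a newer assembly than the peaks, and whether each start is the one used in the deposited annotation was not examined. Egf lies on the minus strand in GRCr8 but on the plus strand by the positions of its peaks. The 4 shown are those of Areg, whose promoter had the highest-scoring peak of the family, at chr14:17265592-17265891 (minus strand), of Tgfa at chr4:120175469-120175768 (plus strand) and Hbegf at chr18:28390171-28390470 (minus strand), which are alike in CG content and unlike in their peaks, and of Egf at chr2:220976248-220976547 (minus strand), which has few CG pairs and a broad peak. Capitals mark CG dinucleotides, which read the same on both strands.
Areg: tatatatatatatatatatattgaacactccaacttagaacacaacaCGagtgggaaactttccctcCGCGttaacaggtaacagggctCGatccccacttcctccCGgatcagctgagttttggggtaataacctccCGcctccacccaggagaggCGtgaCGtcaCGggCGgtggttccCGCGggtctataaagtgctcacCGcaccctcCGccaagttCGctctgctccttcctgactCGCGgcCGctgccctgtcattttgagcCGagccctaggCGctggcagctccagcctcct
Tgfa: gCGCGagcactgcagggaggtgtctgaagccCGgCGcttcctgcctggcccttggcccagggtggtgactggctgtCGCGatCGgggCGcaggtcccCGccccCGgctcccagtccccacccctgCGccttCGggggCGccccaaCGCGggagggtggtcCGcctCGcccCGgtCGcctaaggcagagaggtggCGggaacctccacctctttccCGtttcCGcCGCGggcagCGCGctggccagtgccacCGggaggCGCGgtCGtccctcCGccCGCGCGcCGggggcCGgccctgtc
Hbegf: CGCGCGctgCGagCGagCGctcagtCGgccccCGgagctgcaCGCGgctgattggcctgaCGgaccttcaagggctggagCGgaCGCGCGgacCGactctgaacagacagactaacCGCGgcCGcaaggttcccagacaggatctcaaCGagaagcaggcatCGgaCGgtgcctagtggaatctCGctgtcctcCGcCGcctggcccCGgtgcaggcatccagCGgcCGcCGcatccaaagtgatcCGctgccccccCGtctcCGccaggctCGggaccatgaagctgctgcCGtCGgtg
Egf: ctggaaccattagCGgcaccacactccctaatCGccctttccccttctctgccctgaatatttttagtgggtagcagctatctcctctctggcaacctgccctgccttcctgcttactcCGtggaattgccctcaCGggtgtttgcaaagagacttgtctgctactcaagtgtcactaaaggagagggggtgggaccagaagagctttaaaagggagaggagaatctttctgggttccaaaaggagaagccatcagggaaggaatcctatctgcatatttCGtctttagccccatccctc

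Nearly all of the 33469 RefSeq promoters (94.5%) hold at least 1 CG, with a median of 7. The Areg window holds 20, more than 75.8% of all promoters. The windows of Tgfa and Hbegf hold 36 and 35 CG pairs, more than 94.6% and 93.9% of all promoters, and that of Egf holds 5. The others hold 37 (Nrg3), 18 (Nrg2), 13 (Btc) and 8 (Epgn). The Areg window also holds the cyclic AMP response element TGACGTCA, whose letters include a CG, 91 bases before the start, and TATAAA 61 bases before it. On either strand, the first motif is present in 1.83% and the second in 14.2% of all promoters, and none of the other 7 windows holds either. Among background genes with a sequence, 5.79% of those with 0 to 3 CG pairs had a promoter peak, and 13.1% of those with 4 to 7. The share was 19.4% with 8 to 15 pairs, 17.5% with 16 to 24 and 19.4% with 25 or more, so it rose no further above 8. A dense CG window was therefore found both at a gene with a promoter peak (Tgfa) and at one without (Hbegf). The Tgfa start itself lay in a gap between peaks, from 241 bp before it to 347 bp after it. Whether this start is the one used for the GRCr8 window was not examined. If it is, the upstream peak reaches into the outermost bases of the window, and the rest of the window lies in the gap.

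A promoter peak is here a peak of the gene whose edge comes no farther than 1000 bp from the transcription start site (TSS). By this measure 7 of the 10 genes (70.0%) carried the mark at a promoter: Nrg1, Nrg2, Tgfa, Areg, Ereg, Egf and Epgn. Over 23154 protein-coding genes the share was 17.2%. Hbegf and Btc were named by peaks that lay farther away, and Nrg3 by none. Promoter peaks of at least 1000 bp were found at 6 of the 10, at all of the above but Epgn, against 9.89% of protein-coding genes. Peaks of at least 3000 bp were found at Nrg2, Areg and Egf, against 4.69%. Counting peaks in the top 25% of scores (9.90 or more) left 6 of 10, against 12.6%. Peaks that contained the TSS were found at 5 of the 10, against 6.15%, and with the reach widened to 5000 bp, which takes in Hbegf and Btc, 9 of 10 had one, against 27.7%. Peaks centred in the narrow promoter-TSS class of the deposited annotation were found at 3 of the 10, against 8.27%. A peak at any distance named 9 of the 10, against 44.5%.

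The highest promoter scores ran over a wide range. Areg led with 330.7, followed by Nrg2 with 184.6, Tgfa with 120.9, Nrg1 with 100.7, Egf with 86.4, Ereg with 54.2 and Epgn with 3.71. The counting intervals of neighbours in this order did not overlap, with the exception of Nrg1 (91.9 to 110.0) and Egf (78.3 to 95.1), and that of Nrg1 ended just below that of Tgfa (111 to 131). Whether any of these differences exceeds the spread between libraries is not known. The median over the 4088 genes of any type with a promoter peak was 40.6, and 6 of the 7 ligand genes lay above it. The 7 differed less in width than in score, apart from Epgn: 6108 bp at Areg, 3761 bp at Nrg2, 3025 bp at Egf, 2774 bp at Tgfa, 1931 bp at Nrg1, 1901 bp at Ereg and 150 bp at Epgn, against a median of 1335 bp.

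**Figure D1:**
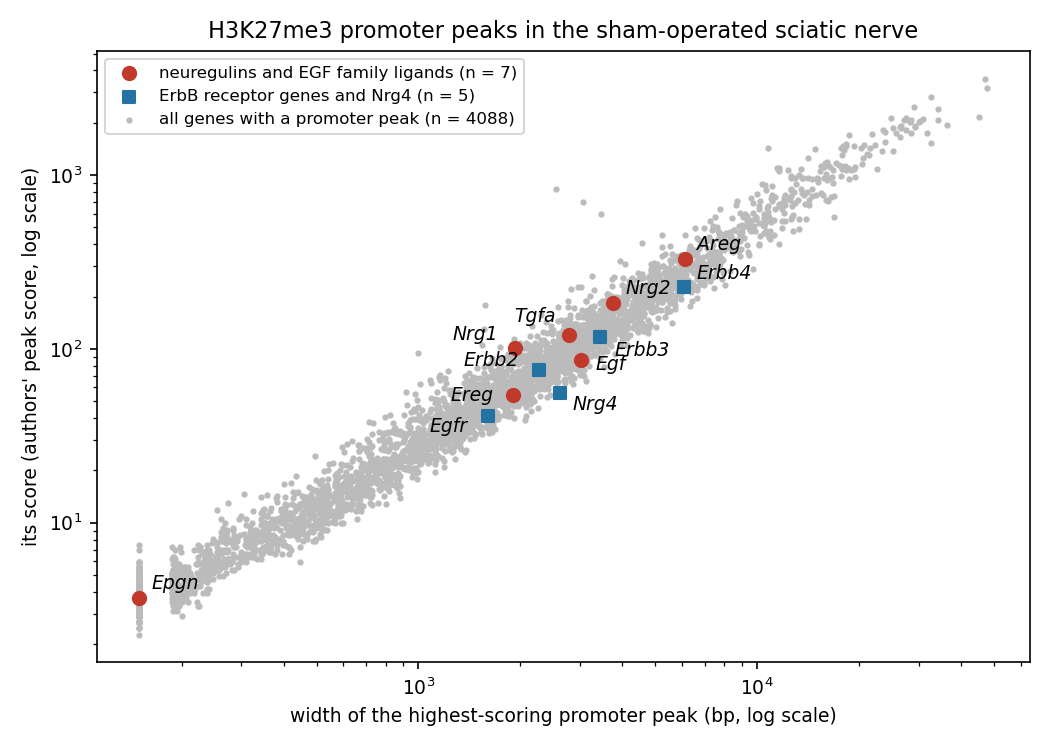
Width (bp, log scale) and score (log scale) of the highest-scoring promoter peak of each gene: 7 ligand genes (circles), the 4 ErbB receptor genes with Nrg4 (squares) and all 4088 genes with a promoter peak (small dots). Areg stands highest of the family at 330.7 and Epgn lies at the narrow end with 150 bp and 3.71.

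Among the neuregulins, Nrg2, a ligand of ErbB3 and ErbB4, had the most extensive marking of the family. It was the nearest gene of 100 peaks, the 53rd highest number of the 10647 genes named, against a median of 7. These peaks covered 57040 bp and made up 42.4% of the peaks of the family. Its start (chromosome 18, 28724922, minus strand) lay within a peak of 95.3 (28724876 to 28727156). The highest peak, 184.6 (95% interval 173 to 197), ran from 28720563 to 28724324 in intron 1. Of the 100 peaks 67 lay in intron 1 and 33 upstream of the gene, and none was centred in a later intron or an exon.

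Around the Nrg2 start the peaks formed a long broken domain. When peaks within 5000 bp of each other were joined, 59 of them made a domain of 83.5 kb (28647698 to 28731238) that ranked 69th in extent of 36394 domains, with peaks covering 41.6% of it. Farther upstream lay separate groups, among them a peak of 109.5 centred at -50.8 kb from the start and a group of 9 peaks with 59.0 as its highest. Only 27.6% of the summed score of Nrg2 lay within 10 kb of its start, against 89.2% for Areg.

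Nrg1 encodes the axonal signal on which Schwann cells depend, and it has several promoters that give different isoforms. The deposited annotation places its 51 peaks at 3 starts on the plus strand of chromosome 16, at 62632432, 63540649 and 63619949, so that the middle start lies 908 kb and the downstream start 988 kb from the upstream one. All 3 had promoter peaks. At the upstream start the highest was 100.7 (62630230 to 62632161, 91.9 to 110.0), just before the start, and a peak of 55.9 lay just after it in intron 1. At the middle start the highest was 76.7 (63541631 to 63544106), with 43.1 on the other side, and at the downstream start a peak of 42.3 (63619442 to 63621021) contained the start. A peak of 52.6 (63621278 to 63623179) lay just outside the reach of that start.

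The marking of Nrg1 was concentrated at these starts and at a few places between them. The highest peak of the gene, 114.3 with 3455 bp (63235628 to 63239083), lay at no annotated start: it was centred at -303.3 kb from the middle start, in intron 1 of the longest transcript, in a group of 7 peaks over 11.4 kb. Another group of 6 peaks over 11.4 kb (63497357 to 63508806, highest 66.0) ended 31843 bp before the middle start. What these intronic sites are was not examined. Of the 51 peaks 40 lay in a first intron, and the peaks covered 2.97% of the 1135569 bp from the first to the last, while those of Nrg2 covered 24.3% of 235150 bp.

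**Figure D2:**
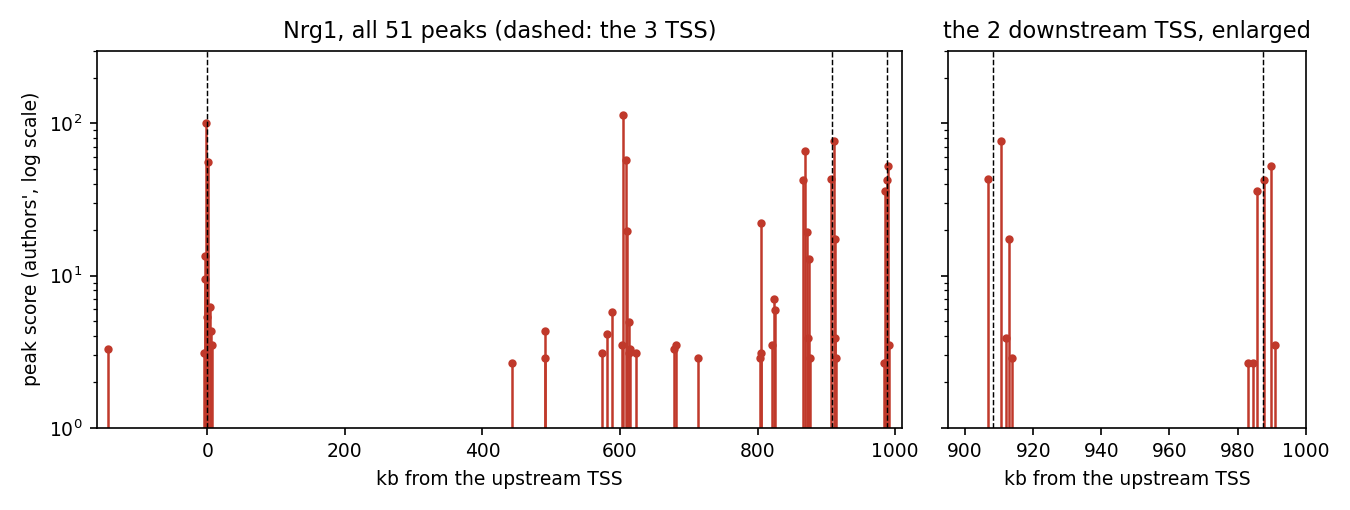
Score of each of the 51 Nrg1 peaks (log scale) against the distance of its centre from the upstream TSS in kb; dashed lines mark the 3 TSS, and the right panel enlarges the 2 downstream ones. Peaks of 100.7, 76.7 and 42.3 are the highest promoter peaks of the 3 starts, and the highest of all, 114.3, stands away from any of them.

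Nrg3, a ligand of ErbB4 known from brain, was named by no peak and counts as unmarked under the rule used here. Every peak in the list is assigned to a transcript of the curated RefSeq kinds (NM or NR), while the newer assembly's table holds 9 accessions for Nrg3, of which 0 are of the NM kind. A gene that the annotation lacks and a gene without a peak look alike in this list. In the newer assembly Nrg3 lies between Ghitm and Sh2d4b. Between the peaks of these genes in the list was a group of 7 peaks over 15.2 kb (chromosome 16, 16810610 to 16825798), the highest 149.8, assigned to RGD1309676 although its start is 551 kb away. Which gene this group lies at was not tested.

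Of the ligands of the EGF receptor, 5 of 7 had a promoter peak, against 17.2% of protein-coding genes. In the top 25% of scores it was 4 of 7, without Epgn, against 12.6%. Areg, amphiregulin, had 13 peaks, of which a single one dominated. It ran over 6108 bp (chromosome 14, 18436535 to 18442643) and contained the start at 18440735 on the minus strand, with a score of 330.7 (315 to 347). This is rank 337 among the 4088 genes with a promoter peak, above 91.8% of them. Smaller peaks of 36.3 and 29.1 lay upstream, and peaks of 16.5 and 28.9 lay downstream. Joined, 10 of the 13 made a domain of 18.9 kb. The 3 protein-coding genes most like it in the width and score of their highest promoter peak were Slc26a4 (6038 bp, 337.0), Foxd1 (5992 bp, 336.6) and Hpcal4 (6131 bp, 342.6), a likeness over these 2 values in 1 pooled list.

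Areg is one of 4 members that lie side by side. On chromosome 14, Btc, Areg, Ereg and Epgn follow each other, and their starts span 400.2 kb. The 37 peaks from Btc to Epgn named no other gene. The score was unequally shared along the cluster: Areg held 70.8%, Ereg 19.2%, Btc 9.43% and Epgn 0.547%. Ereg, epiregulin, 60.0 kb from Areg, had 8 peaks, 2 of them at its promoter, of 54.2 (18500760 to 18502661, 47.9 to 61.2) just upstream and 45.4 (18499566 to 18500527) just downstream of the start. Epgn, epigen, 42.3 kb farther, had 1 peak of the smallest width, 150 bp, and a score of 3.71 (2.20 to 5.87), which contained its start.

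Btc, betacellulin, at the other end of the cluster, was named by 15 peaks, none wider than 321 bp or higher than 6.19. The closest, 191 bp with 3.92, began 1270 bp from its start in intron 1, just outside the reach. The remaining 14 were intergenic. Btc and Areg, with 298 kb between their starts, therefore had like numbers of peaks (15 and 13) but differed in their highest score, 6.19 and 330.7.

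**Figure D3:**
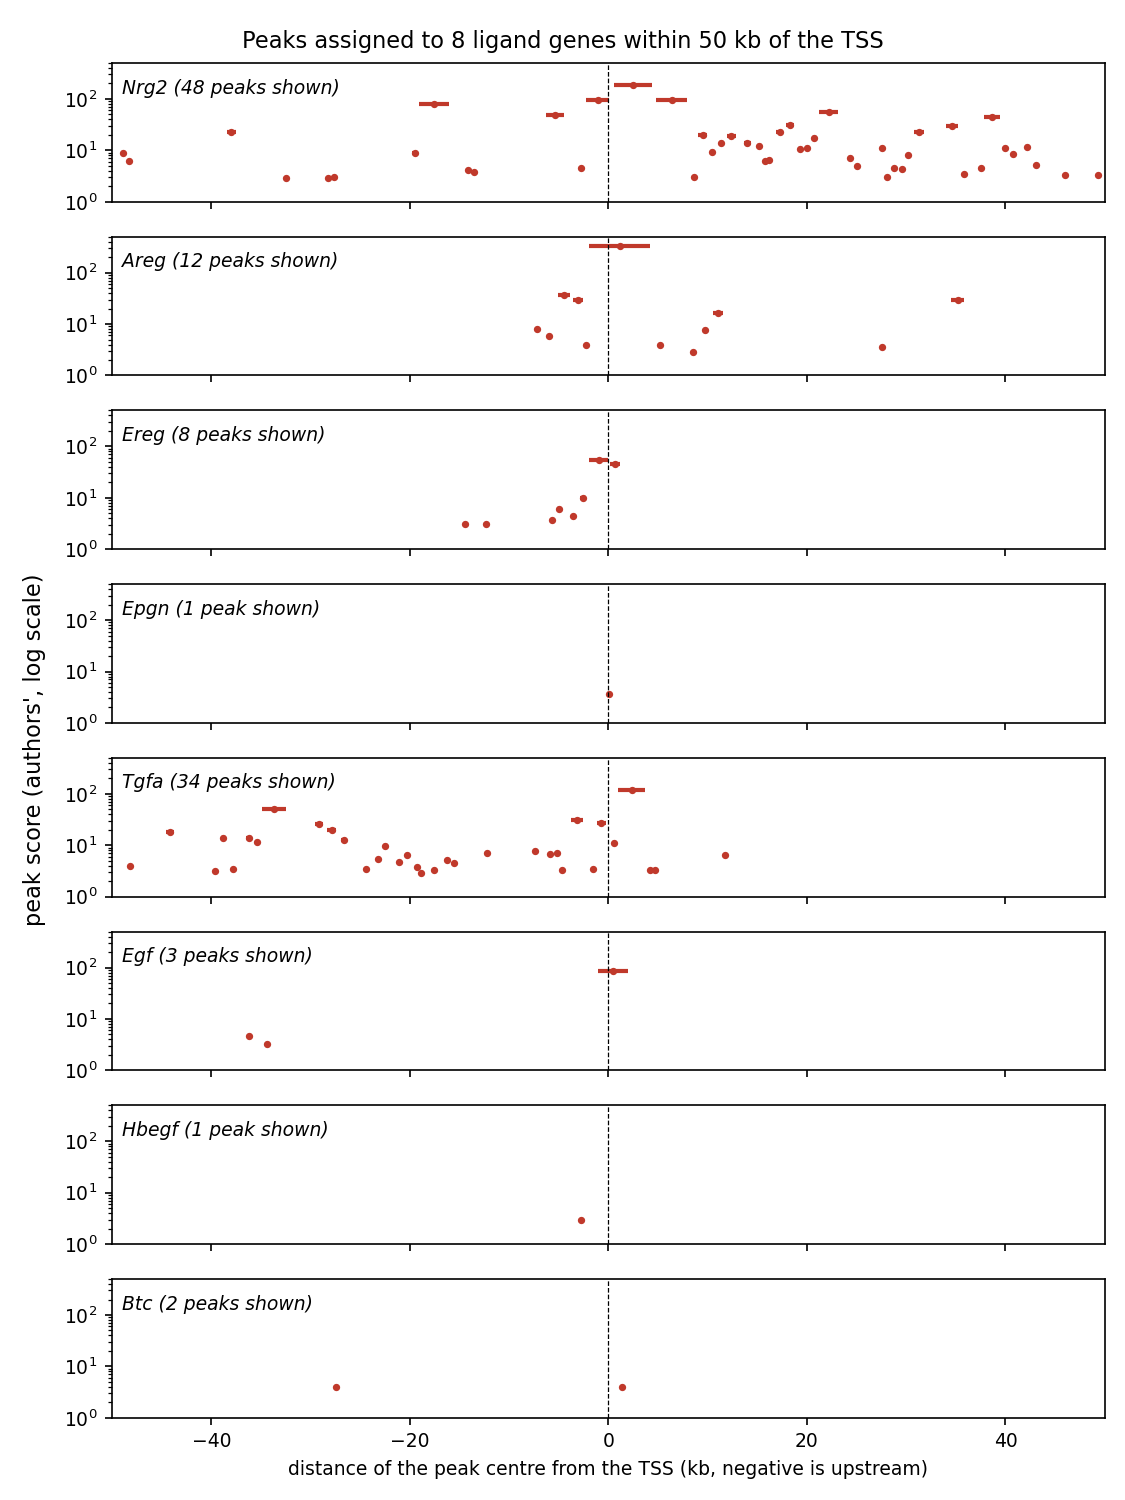
Peaks assigned to 8 ligand genes within 50 kb of the TSS, as their score (log scale) against the signed distance of the centre in kb; the horizontal bar through a point is the width of the peak. Nrg2 and Tgfa have 48 and 34 peaks in view, Areg has its highest peak across the TSS, and Hbegf, Epgn and Btc have 1, 1 and 2 low peaks.

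Tgfa, transforming growth factor alpha, had 44 peaks, more than any other ligand of the EGF receptor among the 10. Its highest peak, 120.9 (111 to 131, chromosome 4, 182535268 to 182538042), lay in intron 1. A peak of 26.6 ended 241 bp before the start at 182534326, and one of 10.9, in a CpG island of the annotation, began 347 bp after it. The marking was lopsided: 36 of the 44 peaks and 72.4% of the score lay upstream. Joined, 40 of the peaks formed a domain of 73.6 kb, rank 102 in extent, of which 27.6% was covered. The widest upstream peak, 2366 bp with 50.7, was centred at -33.7 kb from the start.

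Egf itself, the founding ligand, had 3 peaks, and 1 held 91.5% of their score: 86.4 (78.3 to 95.1) over 3025 bp (chromosome 2, 74745668 to 74748693), centred in exon 1 and containing the start. In the newer assembly the curated genes on either side of Egf are Elovl6 and Rrh. In the list Rrh also lies beside Egf, as a peak that names it joins 2 upstream peaks of Egf in a group that ends 34356 bp from the Egf start. On the other side the next peak in the list, 706 kb away, names Dab2 and not Elovl6. An Elovl6 without a peak would not appear in the list, so whether the gene order differs between the assemblies cannot be told from it. The strand does differ: the peaks place the Egf start at 74746757 on the plus strand, while GRCr8 has Egf on the minus strand. The gene order in rn5 was not examined.

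Hbegf, heparin-binding EGF-like growth factor, a gene of the wound response, had the lowest summed score of the 9 genes named. Its 1 peak (chromosome 18, 29049467 to 29049617) was of the smallest width, 150 bp, had a score of 2.89 and lay 2796 bp upstream of the start. Within 2 kb of the start no base was covered. Its start lies 322 kb from that of Nrg2, and of the summed score from the first Nrg2 peak to the Hbegf peak 93.6% named Nrg2, 6.24% Pfdn1 and 0.165% Hbegf.

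The assignment of a peak to a gene depends on which starts are annotated, so cover was also measured around each start from all peaks, whatever gene they named. Within 10 kb on either side, peaks covered 61.5% of the bases at Nrg2, 48.6% at Areg, 34.2% at Tgfa, 28.9%, 28.2% and 27.2% at the upstream, middle and downstream starts of Nrg1, 19.9% at Ereg and 15.1% at Egf. At Btc it was 0.955%, and at Epgn and Hbegf 0.750% each. The median over 9312 starts named by at least 2 peaks was 5.31% and the 90th percentile 38.2%. Nrg2 and Areg lay above that percentile, and Btc, Epgn and Hbegf lay below the median.

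**Figure D4:**
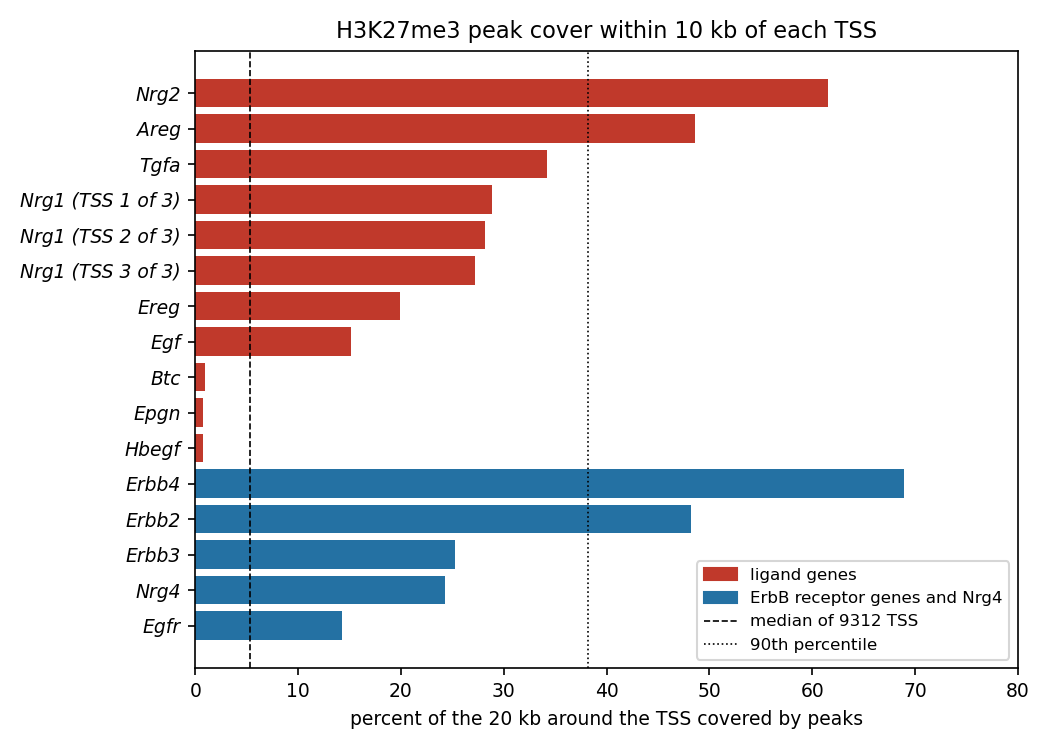
Percent of the 20 kb around each TSS covered by H3K27me3 peaks, for the ligand genes and, below them, the ErbB receptor genes with Nrg4; the dashed and dotted lines are the median (5.31%) and the 90th percentile (38.2%) of 9312 TSS. Nrg2 (61.5%) and Areg (48.6%) pass the dotted line, and Btc, Epgn and Hbegf stay left of the dashed one.

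Of the 7 ligand genes with a promoter peak, 5 had a start inside a peak (Areg, Egf, Epgn, Nrg2 and the downstream start of Nrg1), against 35.8% of the protein-coding genes with a promoter peak. Among all 11 starts of the ligand genes, another 4 lay in a gap with a peak within 1000 bp on both sides. These gaps measured 233 bp at Ereg, 369 bp at the upstream and 1465 bp at the middle start of Nrg1, and 588 bp at Tgfa.

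As a group, the peaks of the ligand genes were more often intronic than those of the whole list (52.1% against 21.8%) and less often intergenic (44.9% against 74.7%). These shares follow Nrg1 and Nrg2, which together hold 64.0% of the 236 peaks and have long first introns. Their median score was 5.36 and median width 206 bp, against 4.54 and 191 bp over all peaks, and 33.1% fell in the top 25% of scores. Peaks centred in repeats made up 34.7%, against 31.1% in the list.

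The receptors of these ligands also carried the mark. All 4 receptor genes had a promoter peak, against 17.2% of protein-coding genes. Egfr, Erbb2 and Erbb4 had 2, 3 and 2 of them, and Erbb3 had 1. The highest-scoring one of each gene lay in intron 1. The scores were 225.7 (212 to 239) over 6076 bp at Erbb4, 117.2 (108 to 127) over 3445 bp at Erbb3, 75.9 (68.3 to 84.1) over 2268 bp at Erbb2 and 41.3 (35.7 to 47.4) over 1600 bp at Egfr. Erbb3 and Erbb2 encode the neuregulin receptor of Schwann cells, which express it in the nerve. Nrg4, an ErbB4 ligand that is not one of the 10, had 55.7 (49.2 to 62.7) over 2622 bp. At none of these 5 genes did a peak contain the start. The gap around it was 445 bp at Egfr, 507 bp at Nrg4, 551 bp at Erbb4, 713 bp at Erbb2 and 1533 bp at Erbb3, where the peak in intron 1 ended 34 bp from the start.

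Beyond ligands and receptors, the promoter peaks of pathway genes were narrow and low. Of 9 genes that release or process the ligands 2 had one (22.2%, against 17.2% of protein-coding genes). These were the inactive rhomboid gene Rhbdf1 (4.95 over 202 bp) and the rhomboid protease gene Rhbdl2 (3.92 over 150 bp). Of 7 genes that restrain the receptors 1 did (14.3%), Errfi1 (4.33 over 150 bp), which encodes an inhibitor of the receptor kinases. Of 15 genes that relay the signal, from adaptors to kinases, none did. In all, 8 of 36 genes of the pathway outside the 10 ligands had one (22.2%, against 17.2% of protein-coding genes), and 5 of the 36, the receptors and Nrg4, had one in the top 25% of scores, a share near the 12.6% of protein-coding genes. A peak at any distance named 22 of the 36, against 44.5% of protein-coding genes, and the limit given for Nrg3 applies to the other 14.

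Other growth factor families of the nerve stand beside these values. Of 22 Fgf genes 17 had a promoter peak (77.3%), with Fgf19 (511.3) and Fgf8 (388.4) highest, and the median over those 17 was 129.5. All 4 neurotrophin genes had one, with Bdnf (377.3) and Ntf3 (286.3) highest. Of the 4 ligands of the GDNF family 2 had one, Gdnf (480.6) and Artn (118.0). The median over the 7 neuregulin and EGF family genes was 101. No test of a difference between these families was made.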

How the data were processed

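Per the labels' protocols, micrococcal nuclease fragmented the chromatin before immunoprecipitation, and the submitters' processing notes name CASAVA 1.8.2, Bowtie and HOMER. The combined H3K27me3 list was annotated against rn5, per the file headers. The sources used here do not give how peaks were called, how the input entered, or how libraries or animals were pooled. The deposited peak score, positions, widths and distances to the TSS were used as the authors gave them, and no input values were used.

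TSS positions and strands were solved from peak centres and signed distances. Hbegf and Epgn, with 1 peak each, took their strand from RefSeq GRCr8. A promoter peak lies within 1000 bp plus the width divided by 2 of the TSS. Background genes were the 23154 protein-coding genes of that table, to which 99.3% of the genes named matched. The limit given for Nrg3 applies to them as well: a gene that the deposited annotation lacks counts as without a peak. How many these are was not examined, and they lower the background shares. Spans were taken for genes with at least 5 peaks and domains joined peaks within 5000 bp. The functions recovered simulated starts and promoter peaks, where all other simulated peaks lay far from the start. Peaks near the 1000 bp limit, genes with 1 peak and genes with several starts were not simulated.

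Named were all 10 genes, the receptors and Nrg4, pathway genes with a promoter peak, the 2 highest genes of each compared family, and the 3 genes nearest to the leading ligand in log2 width and log2 score. Members and lists were chosen with earlier results of these data known. Part of the marker results is not reported here. Alternatives changed the reach, the score minimum, the promoter class and the joining of peaks. Python 3.11.15, pandas 2.3.3 and scipy 1.17.1 were used.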

Additional observations from a re-analysis of the deposited data

How the results depend on the processing

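The 7 ligand genes with a promoter peak became 5 when only peaks over the TSS counted (without Tgfa and Ereg), 9 with a reach of 5000 bp (with Hbegf and Btc), 6 with scores at or above the median of 4.54 or in the top 25% (without Epgn), and stayed at 7 with peaks within 5000 bp merged. Counting peaks centred in the authors' promoter-TSS class alone left 3 (Tgfa, Ereg and Epgn), since no peak of the other 4 is centred in that class. Of the promoter scores, 3 moved: with peaks over the TSS alone Nrg1 had 42.3 and Nrg2 95.3, and with that class alone Tgfa had 26.6. The 8 pathway genes became 0 when only peaks over the TSS counted, 4 with the promoter-TSS class and 5 with the top 25% of scores. The 236 peaks became 135 at or above the median score, 78 in the top 25% and 47 after merging, all by construction. The cover over the joint span of the 6 ligand genes with at least 5 peaks was 7.08%, against 7.71% and 7.51% under the 2 score minimums, which also shorten the span. No paired analysis was possible because the deposited list has 1 pooled score per peak, with none per library, and for the same reason no replicate could be left out. Scores of a few steps, such as those of Epgn and Hbegf, lie near the smallest score of the list, 1.86.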
